A study of Homo sapiens with 12 samples.

Results

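The epidermal differentiation complex is a cluster of 56 genes on human chromosome 1, many of which serve the outer layers of stratified epithelia. It was described here in RWPE-1 cells through the peaks of 5 histone H3 marks that shared at least 1 base with hg19 chr1:151950000-153610000, a region of 1660 kb. The region held 351 of the 457217 peaks listed on chromosomes 1 to 22 and X. They comprised 22 of 28639 H3K4me3 peaks, 81 of 61195 H3K27ac peaks, 140 of 175337 H3K4me1 peaks, 40 of 113735 H3K36me3 peaks and 68 of 78311 H3K27me3 peaks. Neither the genes nor the borders of the region were chosen by the level of a mark.

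RWPE-1 is a line of non-cancerous prostate epithelial cells that was immortalised with human papillomavirus 18. All cells were below passage 20 and were grown without serum in a keratinocyte medium with EGF at 5 ng/ml and bovine pituitary extract at 0.05 mg/ml, the full medium of the labels. Chromatin immunoprecipitation and sequencing gave 2 libraries for each of the 5 marks, beside 1 input and 1 DNase library that were not analysed here. Both libraries of a mark are represented by 1 combined list of peaks, so values below carry no replicate error and no difference was tested. The lists hold no read counts, the sequencing depth behind each is unknown, and there is no treated or control group. The line was not checked against markers of prostate epithelium, since no gene positions of hg19 were used.

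A number of genes of this complex, though not all, build and seal the cornified envelope, the cross-linked protein shell that replaces the plasma membrane of a keratinocyte as it dies. Many of them are silent in basal cells and switched on late in differentiation, while several S100 calcium-binding proteins are made in many epithelia. H3K4me3 marks promoters, H3K27ac active promoters and enhancers, and H3K4me1 enhancers and the flanks of promoters. H3K36me3 is laid down over transcribed gene bodies and H3K27me3 is the mark of Polycomb repression.

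The 56 genes were read as 5 blocks. S100A10 and S100A11, a partner of annexin A2 and a calcium-binding substrate of transglutaminase, open the region. The FLG group follows with 7 genes for large fused-type S100 proteins: TCHHL1, TCHH (trichohyalin of the hair follicle), RPTN (repetin), HRNR (hornerin), FLG (filaggrin, which bundles keratin filaments), FLG2 and CRNN (cornulin). The LCE block has 18 genes, the 17 late cornified envelope genes from LCE5A to LCE1A and CRCT1. The IVL/SPRR/LOR block has 12 genes: IVL (involucrin, an early scaffold of the envelope), the small proline-rich bridging proteins SPRR4, SPRR1A, SPRR3, SPRR1B, SPRR2D, SPRR2A, SPRR2B, SPRR2E, SPRR2F and SPRR2G, and LOR (loricrin, a main component of the finished envelope). The S100 block closes the region with 14 genes, from S100A9 through S100A12, S100A8, S100A7A, S100A7, S100A6, S100A5, S100A4, S100A3, S100A2, S100A16, S100A14 and S100A13 to S100A1. The other 3 genes are named in no block: in gene order SMCP comes just before IVL, and PGLYRP3 and PGLYRP4 come between LOR and S100A9. All 56 were found in the RefSeq table of GRCh38.p14 in this order. That build differs from the build of the peaks, so a peak is placed below by block and by distance from a block's border and not by gene.

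RefSeq promoter sequences were at hand for 52 of the 56 genes, with none for CRCT1, LCE1B, SPRR2D and SPRR2E. The 7 shown here give at least 1 gene per block and were chosen after their letters and the peaks were seen, because they show the sequence types the blocks differ by. Each is the stretch of 250 bases before the start, 5′ to 3′ in the direction of the gene, with positions in GRCh38.p14 that cannot be set against the hg19 peaks. Capitals mark 3 things: each CG, the TATA box motif TATAAA where it begins 35 to 25 bases before the start, and the AP-1 motif TGACTCA or TGAGTCA, each the reverse complement of the other. LORICRIN is the RefSeq symbol of LOR.
S100A10, GRCh38.p14 chr1:151993860-151994109, minus strand: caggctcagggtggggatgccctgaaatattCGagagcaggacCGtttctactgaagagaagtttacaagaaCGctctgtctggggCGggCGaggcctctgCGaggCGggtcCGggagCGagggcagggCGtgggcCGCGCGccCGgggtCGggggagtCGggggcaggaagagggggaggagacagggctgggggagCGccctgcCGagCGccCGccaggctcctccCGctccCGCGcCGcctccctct
TCHH, GRCh38.p14 chr1:152115445-152115694, minus strand: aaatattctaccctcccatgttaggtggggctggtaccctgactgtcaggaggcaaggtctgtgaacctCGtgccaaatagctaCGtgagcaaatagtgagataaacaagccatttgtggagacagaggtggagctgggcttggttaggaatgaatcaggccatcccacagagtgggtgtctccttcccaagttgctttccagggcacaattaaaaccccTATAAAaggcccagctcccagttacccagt
LCE2D, GRCh38.p14 chr1:152663130-152663379, plus strand: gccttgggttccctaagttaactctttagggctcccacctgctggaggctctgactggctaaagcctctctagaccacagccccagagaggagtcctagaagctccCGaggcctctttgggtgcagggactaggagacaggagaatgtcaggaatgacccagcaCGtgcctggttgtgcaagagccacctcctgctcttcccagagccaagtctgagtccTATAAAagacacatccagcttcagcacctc
IVL, GRCh38.p14 chr1:152908296-152908545, plus strand: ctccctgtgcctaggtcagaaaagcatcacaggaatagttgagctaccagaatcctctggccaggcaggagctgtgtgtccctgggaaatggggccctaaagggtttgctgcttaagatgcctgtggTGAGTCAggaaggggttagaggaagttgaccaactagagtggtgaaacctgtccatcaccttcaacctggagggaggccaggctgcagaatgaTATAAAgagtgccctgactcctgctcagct
SPRR2A, GRCh38.p14 chr1:153057513-153057762, minus strand: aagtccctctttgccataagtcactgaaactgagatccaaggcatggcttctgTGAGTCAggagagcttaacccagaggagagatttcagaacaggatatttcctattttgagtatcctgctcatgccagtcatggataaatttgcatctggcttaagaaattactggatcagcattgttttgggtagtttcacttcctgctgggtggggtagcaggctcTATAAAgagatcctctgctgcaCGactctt
LORICRIN, GRCh38.p14 chr1:153259437-153259686, plus strand: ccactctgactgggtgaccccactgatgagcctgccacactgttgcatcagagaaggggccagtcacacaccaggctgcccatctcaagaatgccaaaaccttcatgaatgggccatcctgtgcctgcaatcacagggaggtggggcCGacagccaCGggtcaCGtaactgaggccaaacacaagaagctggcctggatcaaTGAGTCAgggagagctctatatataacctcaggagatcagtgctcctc
S100A6, GRCh38.p14 chr1:153535992-153536241, minus strand: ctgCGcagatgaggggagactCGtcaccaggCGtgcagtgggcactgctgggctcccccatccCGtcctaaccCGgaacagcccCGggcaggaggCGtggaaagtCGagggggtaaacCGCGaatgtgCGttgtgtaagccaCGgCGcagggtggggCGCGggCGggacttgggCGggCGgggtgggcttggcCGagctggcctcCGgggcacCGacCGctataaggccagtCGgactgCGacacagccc
The stretches of S100A10 and S100A6 hold 24 CG each. Those of TCHH and LCE2D hold 2 each, and that of SPRR2A holds 1. The stretch of LORICRIN holds 3 CG and that of IVL holds 0.

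Seen whole, the region was richer in 4 of the 5 marks than the chromosomes at large. H3K27ac peaks covered 9.36% of its bases against 3.72% of all chromosomes, 2.52 times as much. H3K4me3 covered 2.70% against 1.52%, H3K4me1 10.6% against 6.04% and H3K27me3 3.82% against 2.39%. H3K36me3 was the exception, at 3.01% against 3.60%. In windows of 50 kb the marks were unevenly spread. H3K27me3 lay in 17 of the 34 windows (50%, 95% Wilson interval 34.1 to 65.9%), against 26.6% of the 60693 windows of all chromosomes. With scores of 100 or more it lay in 11 (32.4%, 19.1 to 49.2%), against 17.3%, and with windows moved by 25 kb in 14. H3K27ac lay in 20 (58.8%, 42.2 to 73.6%) against 41.1%, and H3K4me1 in 30 (88.2%, 73.4 to 95.3%) against 68.0%. H3K4me3 lay in 13 windows (38.2%, 23.9 to 55.0%) against 31.3%, and H3K36me3 in 10 (29.4%, 16.8 to 46.2%) against 31.2%, so for these 2 marks the interval included the share of all chromosomes. The intervals cover counting error only and treat windows as independent, and 78.4% of all windows held a peak of any mark. Stretches where no read can be placed were not taken out, so the shares of all chromosomes may be too low. The lower bound for H3K27ac, 42.2%, is close to its share of 41.1%, so that difference could depend on this.

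**Figure D1:**
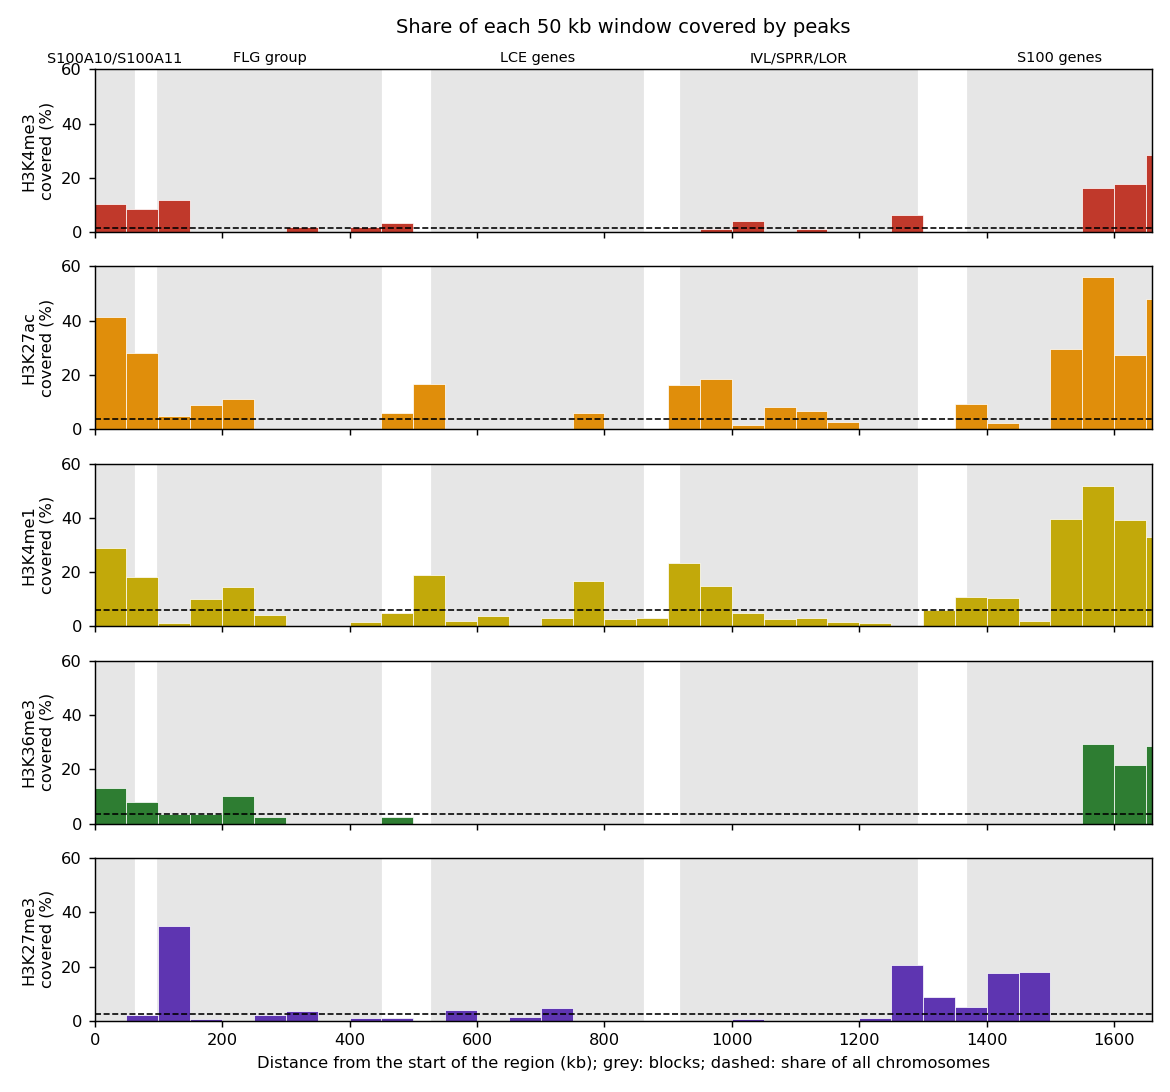
Share of each 50 kb window covered by peaks (y axis, percent) against the distance from the start of the region (x axis, kb), with 1 panel per mark, the 5 blocks in grey and the share of all chromosomes as a dashed line. H3K27ac, H3K4me1 and H3K36me3 stand highest at the ends of the region, H3K4me3 also stands high at 100 kb, and the last bar is a window of only 10 kb. H3K27me3 stands highest at 100 kb, where it covers 34.8%, and next at 1250 kb, where it covers 20.5%.

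The 2 blocks of S100 genes at the ends of the region carried most of the active marks. H3K27ac covered 27.1% of their bases together against 3.84% of the 3 blocks between them (FLG, LCE and IVL/SPRR/LOR, called the middle blocks below), 7.06 times as much. H3K36me3 covered 11.01% against 0.943%, 11.7 times as much. H3K4me3 covered 8.08% against 1.33% and H3K4me1 27.9% against 5.13%. H3K27me3 was the closest to even, with 5.04% against 3.53%. Peaks of the end blocks also had higher deposited scores, a measure of peak strength that the files do not define, which starts at 50 and has a ceiling near 3100. The median H3K4me3 score was 3100 over 9 peaks in the end blocks and 75.6 over 10 peaks in the middle blocks.

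**Figure D2:**
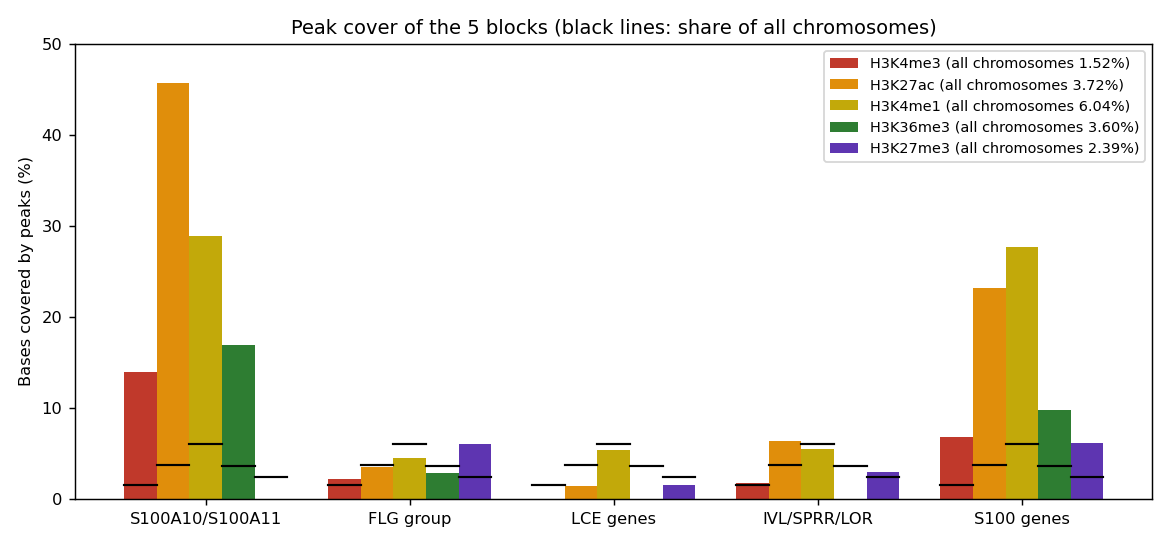
Share of bases covered by peaks (y axis, percent) in each of the 5 blocks (x axis), with 1 bar per mark and black lines at the share of all chromosomes. The S100A10/S100A11 and S100 blocks stand above the lines for H3K4me3, H3K27ac, H3K4me1 and H3K36me3, while H3K27me3 is 0 at S100A10/S100A11 and 6.04% in the FLG group.

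The block of S100A10 and S100A11 was the most densely marked and the only block without H3K27me3. It was also the shortest block, and only 26.6% of all 50 kb windows held an H3K27me3 peak, so this absence does not set it apart. Its 62.0 kb held 2 H3K4me3, 8 H3K27ac, 17 H3K4me1 and 6 H3K36me3 peaks. H3K27ac covered 45.7% of the block, 12.3 times the share of all chromosomes, and H3K36me3 covered 16.9%, 4.70 times that share. The first H3K4me3 peak, chr1:151962269-151967454, was 5186 bases wide with a score of 2936. It lay whole within an H3K27ac peak of 9406 bases, chr1:151958871-151968276. The second, chr1:152006633-152010083, was 3451 bases wide with a score of 3100 and lay whole within an H3K27ac peak of 4887 bases, chr1:152005925-152010811. Both also touched H3K4me1 and H3K36me3. A further H3K27ac peak of 5644 bases, chr1:151970457-151976100 with a score of 1465, touched no H3K4me3 and was 63.1% covered by H3K4me1. The widest H3K36me3 peaks were chr1:152003086-152006527 (3442 bases, score 1148), chr1:151955980-151958788 (2809 bases, score 540) and chr1:151954136-151955920 (1785 bases, score 276). H3K4me1 was widest at chr1:151971667-151974343 (2677 bases, score 438), chr1:151995038-151996759 (1722 bases, score 487) and chr1:151959176-151960855 (1680 bases, score 1039), each whole within H3K27ac. The strong marking went past the border of the block, since the gap of 38.0 kb before the FLG group held an H3K27ac peak of score 3100, chr1:152018439-152022309, with a narrow H3K4me3 peak inside it, chr1:152019255-152020039 (785 bases, score 94.7).

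The S100 block at the other end was split along its length into 3 stretches. All 19 of its H3K27me3 peaks lay between chr1:153374705 and chr1:153438054, a stretch of 63.4 kb. The 54.7 kb before it, at the S100A9 edge, held 4 H3K27ac peaks over 10.4% of its bases and 8 H3K4me1 peaks over 19.7%, with no H3K4me3 and no H3K36me3. The 172 kb after it, on the side of S100A1, held 7 H3K4me3, 27 H3K27ac, 46 H3K4me1 and 22 H3K36me3 peaks. These borders are the start of the first and the end of the last H3K27me3 peak and were chosen after the peaks were seen. The lack of H3K27me3 outside them, and its cover of 28.0% between them, are therefore by construction.

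The other marks do not define the borders, but the borders were chosen with the peaks in view, so these marks are no independent check. The middle stretch held 1 H3K4me1 peak, which covered 1.52% of it, and none of H3K4me3, H3K27ac or H3K36me3. Of all 50 kb windows, 31.3% held H3K4me3, 41.1% H3K27ac and 31.2% H3K36me3, so the absence of any 1 of them is common. In the stretch after the middle one H3K27ac covered 35.7%, 9.61 times the share of all chromosomes, and H3K36me3 covered 16.5%. At the S100A9 edge the strongest H3K27ac peaks were chr1:153329002-153331034 (2033 bases, score 603) and chr1:153346992-153348996 (2005 bases, score 470). Both were moderate beside those of the S100A1 side, where 5 peaks reached the score ceiling.

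**Figure D3:**
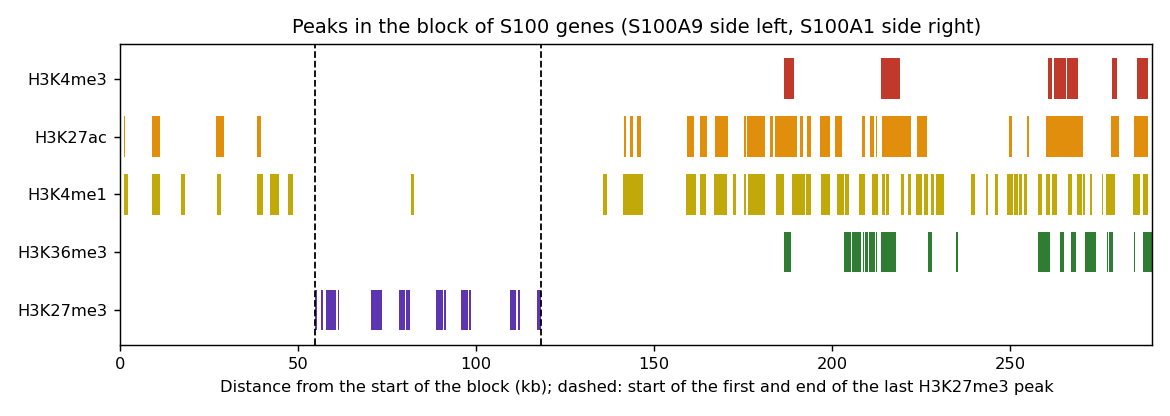
Peaks of the 5 marks (rows) drawn to scale along the S100 block, against the distance from its start (x axis, kb), with dashed lines at the start of the first and the end of the last H3K27me3 peak. Between the lines are all 19 H3K27me3 peaks and 1 H3K4me1 peak, to their left 4 H3K27ac and 8 H3K4me1 peaks, and to their right all 7 H3K4me3 and all 22 H3K36me3 peaks.

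The H3K27me3 of the middle stretch formed many peaks of moderate score, and none of the 19 touched another mark. The 3 widest were chr1:153377706-153380624 (2919 bases, score 474), chr1:153390531-153392986 (2456 bases, score 534) and chr1:153415610-153417778 (2169 bases, score 453). None of the 19 reached the score ceiling, which 0.964% of all H3K27me3 peaks did. Of all H3K27me3 peaks, 5.90% touched H3K4me3 and 1.90% touched H3K27ac. The counts of 0 of 19, which allow up to 16.8% by the Wilson interval, could not be told from these shares. S100A9 and S100A8, which pair as calprotectin, S100A12, and the skin antimicrobial proteins S100A7 and S100A7A come first in the order of this block.

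On the S100A1 side each of the 7 H3K4me3 peaks was at least 98.2% covered by H3K27ac, and none touched H3K27me3, which is absent there by construction. The widest was chr1:153533855-153538988, with 5134 bases and a score of 3100. It was 79.2% covered by H3K36me3, in a peak of 4193 bases with a score of 2358. The 3 neighbouring peaks chr1:153580597-153581681, chr1:153582317-153585768 and chr1:153586063-153589099, all lay within a single H3K27ac peak. That peak, chr1:153580068-153590575, was 10508 bases wide and ranked 205 of 61195 by width. After it in width came chr1:153533947-153542195 (8249 bases) and chr1:153504005-153510085 (6081 bases), both at the score ceiling and both over an H3K4me3 peak. The next widest H3K36me3 peaks were chr1:153577941-153581241 (3301 bases, score 1398) and chr1:153607898-153611019 (3122 bases, score 592), and the second runs past the end of the region. The other 3 H3K4me3 peaks were chr1:153506366-153509312 (score 2226), chr1:153598720-153600003 (score 726) and chr1:153605785-153608637 (score 3100).

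A further H3K27ac peak of the S100 block at the score ceiling had no H3K4me3. It was chr1:153495975-153501139, 5165 bases wide and 93.4% covered by H3K4me1. The widest H3K4me1 peak of the region, chr1:153496243-153501065 with 4823 bases and a score of 880, lay within it. The next widest H3K4me1 peaks, chr1:153486906-153490465 (3560 bases, score 832) and chr1:153508732-153512249 (3518 bases, score 552), also touched H3K27ac. The window from chr1:153500000 to 153549999 had the highest H3K27ac cover of the region, 56.3%, above 99.8% of the windows of all chromosomes. H3K4me1 covered 51.6% of the same window and H3K36me3 29.3%, each the highest of its mark in the region. The windows from chr1:153450000 and from chr1:153550000 came next for H3K4me1, with 39.8% and 39.4%. For H3K4me3 the most covered windows of full length began at chr1:153550000 (17.7%), chr1:153500000 (16.2%) and, in the FLG group, chr1:152050000 (11.7%). After the window from chr1:153500000, the full-length windows with most H3K27ac cover began at chr1:151950000 (41.4%) and chr1:153450000 (29.5%). For H3K36me3 the next full-length windows began at chr1:153550000 (21.6%) and chr1:151950000 (13.01%). For H3K27me3 the windows with most cover began at chr1:152050000 (34.8%), chr1:153200000 (20.5%) and chr1:153400000 (18.0%).

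The FLG group held the region's widest H3K4me3 peak and its widest H3K27me3 peak at the same place, near its start. The H3K4me3 peak, chr1:152079761-152085630, was 5870 bases wide with a score of 3100, and ranked 135 of 28639 by width. It lay whole within an H3K27me3 peak of 7754 bases, chr1:152079362-152087115, also with a score of 3100 and ranked 325 of 78311. An H3K27ac peak of 1894 bases with a score of 485, chr1:152082055-152083948, lay inside both and covered 32.3% of the H3K4me3 peak. H3K36me3 covered 27.3% of it, in a peak of 1600 bases, and H3K4me1 none of it. Of all 28639 H3K4me3 peaks, 49 (0.171%) touched H3K27ac, H3K27me3 and H3K36me3 together. Whether these marks sat on the same molecules or in different cells of the culture was not tested. The place is 29.8 kb after the start of the block, on the side of TCHHL1 and TCHH.

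Most of the block's H3K27me3 lay around this place. Its 20 H3K27me3 peaks covered 6.04%, 2.52 times the share of all chromosomes, but 17.4 of their 21.1 kb lay in the window from chr1:152050000 to 152099999. With peaks joined over gaps of up to 5 kb, the H3K27me3 stretch at chr1:152074068-152089742 covered 10.8 kb in 5 peaks and ranked 1189 of 25989 joined stretches. The next widest H3K27me3 peaks were chr1:152087127-152088566 (1440 bases, score 458) and chr1:152050762-152052168 (1407 bases, score 150). The other 2 H3K4me3 peaks of the block, chr1:152267617-152268494 (878 bases, score 64.1) and chr1:152373097-152374059 (963 bases, score 59.2), were narrow and touched no other mark.

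Most of the H3K27ac and H3K4me1 of the FLG group lay in the next 2 windows. In the windows from chr1:152100000 and from chr1:152150000, H3K27ac covered 8.83% and 11.02% and H3K4me1 10.2% and 14.4%. These values were above 80.4% to 88.8% of the windows of all chromosomes. Beside the H3K27ac peak described above, the widest of the block were chr1:152154071-152157304 (3234 bases, score 647) and chr1:152140524-152142121 (1598 bases, score 186), and neither touched H3K4me3. The widest H3K4me1 peaks of the block were chr1:152134703-152136314 (1612 bases, score 106), chr1:152140477-152141977 (1501 bases, score 199) and chr1:152200762-152202242 (1481 bases, score 152). Over the whole block H3K27ac covered 3.51%, close to the 3.72% of all chromosomes, and the 4 windows from chr1:152200000 on held no H3K27ac. A stretch of 93.8 kb in that part, chr1:152273762-152367567, had no peak of any mark. By number and not by length, 1.06% of such stretches elsewhere were longer.

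None of the 11 H3K36me3 peaks of the FLG group touched H3K27ac, which could not be told from the 10.01% of all H3K36me3 peaks at this number. The 11 covered 2.83% of the block. The widest, chr1:152187830-152189873 and chr1:152186066-152187810, had 2044 and 1745 bases with scores of 83.4 and 50.8, and the next, chr1:152080185-152081784, was the peak inside the wide H3K4me3 peak. The window from chr1:152150000 was 10.3% covered by H3K36me3. Of the 11, 4 had a score of 100 or more. With such peaks alone the cover of the block was 1.01%, against 2.73% for all chromosomes.

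The LCE block was the emptiest. Its 330 kb held 0 H3K4me3 peaks, 0 H3K36me3 peaks, 3 H3K27ac, 16 H3K4me1 and 8 H3K27me3 peaks. H3K27ac covered 1.41%, 0.380 of the share of all chromosomes, and H3K27me3 covered 1.49%, 0.625 of that share. H3K4me1 came closest to the chromosomes at large, with 5.37% against 6.04%. By cover the block was thus low in H3K27me3 as well as in H3K4me3, H3K27ac and H3K36me3. By number its H3K27me3 peaks were near the whole list, at 24.2 per Mb against 25.8.

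The few LCE peaks were of moderate strength. The H3K27ac peaks were chr1:152488956-152490719 (1764 bases, score 434), chr1:152716131-152718113 (1983 bases, score 267) and chr1:152732250-152733163 (914 bases, score 127). All 3 touched H3K4me1, as did 79.5% of all H3K27ac peaks. The widest H3K4me1 peak, chr1:152715979-152718779, had 2801 bases and a score of 433 and contained the second of them whole. It was followed by chr1:152740937-152742484 (1548 bases, score 149.7) and chr1:152690214-152691731 (1518 bases, score 197), which touched no other mark. Of the 16 H3K4me1 peaks 4 touched H3K27ac (25%, 95% Wilson interval 10.2 to 49.5%), a share that could not be told from the 32.2% of all H3K4me1 peaks. The widest H3K27me3 peaks were chr1:152525329-152526424 (1096 bases, score 257), chr1:152651232-152652282 (1051 bases, score 115) and chr1:152663926-152664719 (794 bases, score 79.7). Between the first and the second H3K27ac peak, 225 kb held no peak of H3K4me3, H3K27ac or H3K36me3. By number and not by length, 1.10% of such stretches elsewhere were longer.

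The H3K27ac and H3K4me3 peaks of the IVL/SPRR/LOR block lay apart. H3K27ac covered 6.32% of its 370 kb in 17 peaks, 1.70 times the share of all chromosomes and the highest of the middle blocks. H3K36me3 peaks numbered 0. H3K4me1 covered 5.52% in 18 peaks, against 6.04% of all chromosomes. Of the 18, 14 touched H3K27ac (77.8%, 54.8 to 91.0%), against 32.2% of all H3K4me1 peaks. That share was 76.5% at S100A10/S100A11, 65.5% in the S100 block, 60% in the FLG group and 25% in the LCE block. None of the 17 H3K27ac peaks touched H3K4me3, which allows a share of up to 18.4% by the Wilson interval, against 27.7% of all H3K27ac peaks.

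The H3K27ac of this block was strongest on the side of IVL. The highest score, 1625, belonged to chr1:152925273-152927992, 2720 bases wide, which was 45.5% covered by H3K4me1. Next by width were chr1:153003807-153006525 (2719 bases, score 583) and chr1:153094218-153096618 (2401 bases, score 647). The widest H3K4me1 peak, chr1:152877263-152881675, had 4413 bases and a score of 1158, ranked 1515 of 175337 by width, and was 84.4% covered by 3 H3K27ac peaks. It lay 7.26 kb after the start of the block. The next were chr1:152943647-152945410 (1764 bases, score 298) and chr1:152938903-152940474 (1572 bases, score 173), and both touched H3K27ac. The median H3K27ac score of the block was 121.55, below the 189.95 of the whole list. From chr1:153148835 to 153320900, across the LOR end of the block and the gap after it, 172 kb had no H3K27ac peak.

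H3K4me3 of the IVL/SPRR/LOR block came as 7 peaks of 528 to 1640 bases. The strongest, chr1:153233316-153234955, had 1640 bases and a score of 904 and lay 5.05 kb before the end of the block, on the side of LOR. It was whole within an H3K27me3 peak of 6249 bases with a score of 3100, chr1:153231231-153237479, and touched no H3K27ac. Next came chr1:152979910-152980915, with a score of 113, of which H3K27me3 covered 33.1%. The other 5 had scores of 56.4 to 87.3 and touched no other mark. They were chr1:152910237-152910764, chr1:152978085-152979076, chr1:153052025-153052598, chr1:153215389-153216044 and chr1:153216331-153217204. H3K4me3 covered 1.69% of the block against 1.52% of all chromosomes, but with scores of 100 or more it fell below, at 0.715% against 1.31%.

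H3K27me3 of the block was gathered at its LOR end. The window from chr1:153200000 to 153249999 was 20.5% covered, and above 96.6% of the windows of all chromosomes. Beside the peak of 6249 bases, its widest peaks were chr1:153219154-153220370 (1217 bases, score 156) and chr1:153220655-153221420 (766 bases, score 203). H3K27me3 went on through the gap of 80.0 kb to the S100 block. That gap held 10 H3K27me3 peaks over 8.65% of its bases, 2 H3K4me1 peaks and none of the other 3 marks. The mark then stopped at the border and was absent from the first 54.7 kb of the S100 block, where H3K27ac and H3K4me1 peaks lay instead. PGLYRP3 and PGLYRP4, whose peptidoglycan recognition proteins act against bacteria, come between LOR and S100A9 in gene order, and whether they lie inside this gap was not determined.

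A long stretch without H3K36me3 took in the LCE and IVL/SPRR/LOR blocks and the S100A9 side of the S100 block. It ran from chr1:152445263 to 153506559, 1061 kb, and 391 of the 113712 stretches between neighbouring H3K36me3 peaks (0.344%) were longer. For H3K4me3 the longest stretch without a peak was 503 kb, chr1:152407583-152910236, which took in the LCE block, and 3.05% of such stretches were longer. For H3K27me3 it was 315 kb, chr1:152664720-152979983, from the LCE1 side of the LCE block into the IVL/SPRR/LOR block, with 2.94% longer. The shares of longer stretches given here and above count stretches and not bases. Every short gap between neighbouring peaks is counted as a stretch, so a low share does not make a stretch rare by length.

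Among the 22 H3K4me3 peaks the company of H3K27ac and H3K36me3 followed the blocks. All 9 in the 2 S100 blocks touched H3K27ac, against 61.7% of all H3K4me3 peaks (95% Wilson interval for 9 of 9, 70.1 to 100%). All 9 also touched H3K36me3, against 14.5% of all H3K4me3 peaks. None of the 9 touched H3K27me3, which allows a share of up to 29.9% by the Wilson interval. In the middle blocks 1 of 10 touched H3K27ac (10%, 1.79 to 40.4%) and 3 of 10 touched H3K27me3 (30%, 10.8 to 60.3%), against 15.0% of all H3K4me3 peaks. The shares with H3K27me3 in the S100 blocks and in the middle blocks could not be told from that of the whole list at these numbers of peaks.

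**Figure D4:**
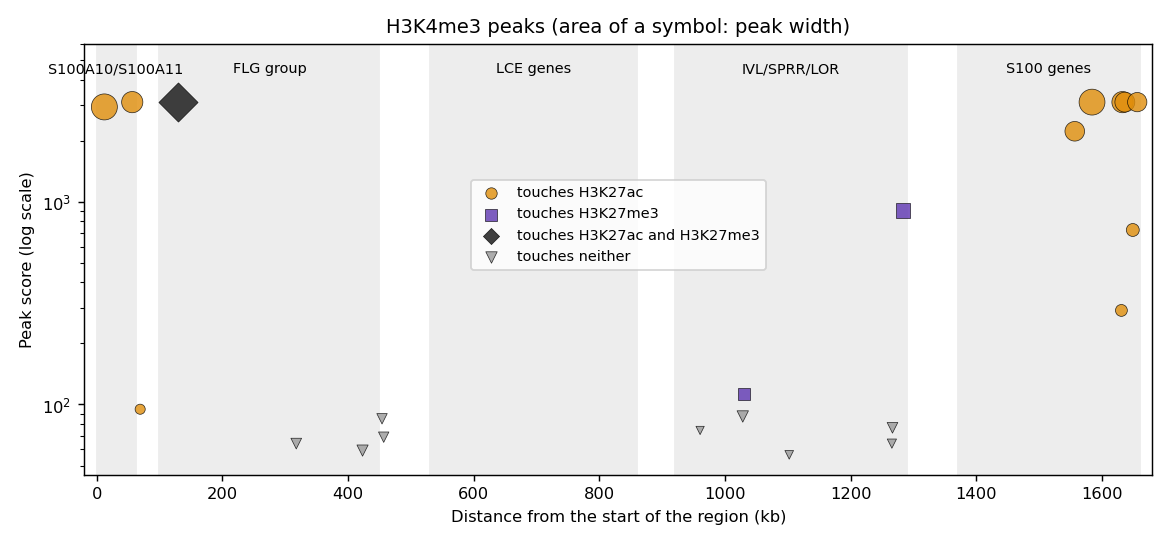
The 22 H3K4me3 peaks by distance from the start of the region (x axis, kb) and deposited score (y axis, log scale), with symbol area for peak width and symbols for the marks they touch. Peaks that touch H3K27ac and not H3K27me3 are at both ends, the peak that touches H3K27ac and H3K27me3 is in the FLG group, and the 9 that touch neither have scores of 56.4 to 87.3.

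Taken by class, 10 of the 22 (45.5%) touched H3K27ac and not H3K27me3, against 57.3% of the whole list. Another 2 (9.09%) touched H3K27me3 alone of the pair, against 10.7%, and 1 (4.55%) touched both, against 4.36%. The other 9 touched neither. This last class was 40.9% of the region's peaks (23.3 to 61.3%) and 27.6% of the whole list. For every class the 95% Wilson interval included the share of the whole list. All 9 were 528 to 992 bases wide, with 7 in the middle blocks and 2 in the gap between the FLG group and the LCE block, chr1:152404083-152404915 and chr1:152406752-152407582. A wide peak has more chances to touch another than a narrow one, and the shares were not adjusted for width.

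The region's H3K27ac peaks touched H3K4me1 more often, and H3K4me3 less often, than those of the whole list. Of its 81 H3K27ac peaks 73 touched H3K4me1 (90.1%, 81.7 to 94.9%), against 79.5% of all H3K27ac peaks. Only 9 touched H3K4me3 (11.1%, 5.96 to 19.8%), against 27.7%. Read from the other mark, 88 of 140 H3K4me1 peaks touched H3K27ac (62.9%, 54.6 to 70.4%), against 32.2%. In the middle blocks 29 of 30 H3K27ac peaks were free of H3K4me3, and 25 of those 29 touched H3K4me1. Over all 30 the share with H3K4me1 was 83.3% (66.4 to 92.7%), which could not be told from the 79.5% of all H3K27ac peaks. None of the 30 reached the score ceiling, while 7 of the 39 in the S100 blocks did.

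The gap of 80.0 kb between the FLG group and the LCE block held stronger H3K27ac peaks than either block. Peaks at chr1:152459085-152461621 (2537 bases, score 1858) and chr1:152473546-152476595 (3050 bases, score 1285) scored above every H3K27ac peak of both neighbours. The second lay 3.40 kb before the start of the LCE block, on the side of LCE5A, whose protein is a late envelope component. H3K27ac covered 12.04% of this gap and H3K4me1 10.3%.

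The promoter sequences of the blocks differed in CG content. A CpG observed-to-expected ratio, the number of CG against the number its C and G content would give, was taken over 300 bases, from 250 before to 50 after the start, with the highest value where a gene had several starts. Its median over the 27305 genes of the RefSeq table was 0.634, and 51.9% of them exceeded 0.6. S100A10 had 0.840 and S100A11 0.781, like the S100A10 stretch shown above. The medians of the middle blocks were 0.0644 for the 7 genes of the FLG group, 0.135 for 16 LCE block genes and 0.0916 for 10 IVL/SPRR/LOR genes. None of these 33 genes exceeded 0.255. In the S100 block the median was 0.208 over 14 genes, and the 2 above 0.6 were S100A6 (0.866) and S100A13 (0.848). The 3 genes of no block had ratios of 0.0696 to 0.122.

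Motifs also fell by block, with a gene counted where any of its starts had the motif. TATAAA beginning 35 to 25 bases before the start, on the strand of the gene, was found in 2.75% of the 27305 genes. It was found in 5 of 7 genes of the FLG group (TCHH, RPTN, HRNR, FLG and CRNN), 4 of 16 in the LCE block (LCE5A, LCE2D, LCE2C and LCE2A), 8 of 10 in the IVL/SPRR/LOR block, and 6 of 14 in the S100 block. It was in neither S100A10 nor S100A11. On either strand and at any place in the 300 bases, TATAAA was in 13.99% of all genes. The AP-1 motif TGACTCA or TGAGTCA, searched anywhere in the 300 bases, was found in 6.05% of all genes. It was in 7 of 10 genes of the IVL/SPRR/LOR block (IVL, SPRR1A, SPRR3, SPRR1B, SPRR2A, SPRR2F and LOR), 3 of 14 of the S100 block (S100A5, S100A3 and S100A2), and 0 of 7 and 0 of 16 in the FLG and LCE blocks. AP-1 factors are known regulators of keratinocyte genes such as IVL. The SPRR2 genes arose by duplication and share sequence, so their motifs are not independent, and a match is a description of letters and not of binding.

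**Figure D5:**
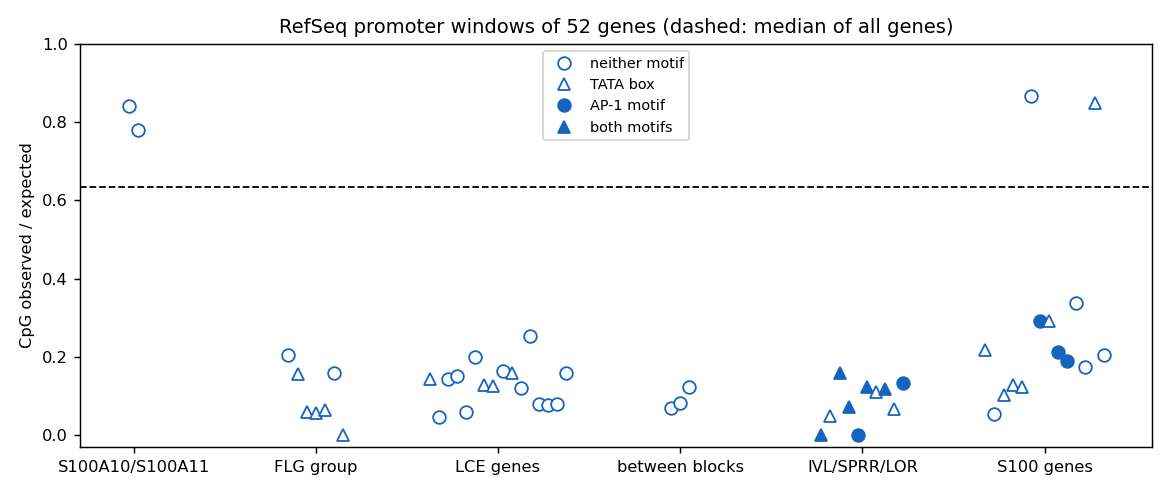
CpG observed-to-expected ratio of the RefSeq promoter windows (y axis) of the 52 genes with a sequence, in their order within each block (x axis), with the median of all genes dashed. Triangles mark the TATA box motif at its place and filled symbols the AP-1 motif, where S100A10, S100A11, S100A6 and S100A13 stand above the line and 7 of 10 IVL/SPRR/LOR genes are filled.

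CG content and H3K4me3 can only be set side by side by block. S100A10 and S100A11, with ratios of 0.840 and 0.781, made up a block with 2 H3K4me3 peaks of scores 2936 and 3100. The LCE block, with a highest ratio of 0.255, had 0 H3K4me3 peaks. The FLG group, with a highest ratio of 0.204, held the widest H3K4me3 peak of the region. The IVL/SPRR/LOR block, with a highest ratio of 0.159, had 7 H3K4me3 peaks with a median score of 76.7. The S100 block, with a median ratio of 0.208 and 2 of 14 genes above 0.6, had 7 H3K4me3 peaks with a median score of 3100. With 5 blocks and no gene positions in the build of the peaks, this relation was not tested.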

How the data were processed

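Peaks of 5 histone marks in RWPE-1 were analysed, with 2 libraries per mark combined in 1 list. Per the submitters' processing notes, CASAVA 1.8.2, Bowtie2 and MACS 1.4 were used with hg19. Whether reads or peaks were combined, the control, the settings and any duplicate filter are not stated in the labels or notes used. Each list deposited by the authors gives positions and a score without a definition. The lowest value of 50 would match a p-value of 1e-05 on the caller's log scale, and 3100 and above was read as a ceiling. The score was used only within a list. Broad marks (H3K36me3, H3K27me3) are cut into short peaks by a caller made for narrow ones, so cover is given beside counts.

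Positions are 1-based and inclusive. Peaks on chromosomes 1 to 22 and X were kept. The end of a chromosome's last peak stood for its length, which gave 3035 Mb in all. No stretch was taken out for lack of placeable reads, so shares of all chromosomes may be low and ratios to them high. Touching means an overlap of 1 base or more. No hg19 annotation or genome was used. Promoter sequences and gene order came from RefSeq, GRCh38.p14.

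The members, blocks and tests were chosen with earlier results of these data known. The regions to be named were every H3K4me3 peak, the 3 widest peaks of each other mark per block, the 3 windows of 50 kb with most cover per mark, the longest stretches without peaks and the H3K27me3 stretches, joined over gaps of up to 5 kb, with most cover. Other peaks that are named were chosen after their values were seen, as were the printed promoters, the motifs and the borders within the S100 block. The 95% Wilson intervals treat peaks as independent and hold no replicate error. Depth is unknown, since the lists hold no read counts. Alternatives were a score of at least 100, peak centres inside the region, blocks widened by 20 kb, windows moved by 25 kb and an overlap of 50% of the smaller peak. Interval counting was tested on simulated data, in which 2820 values of 20 simulations gave 0 mismatches with a count base by base. Python 3.11.15, numpy 2.4.6, statsmodels 0.14.6 and matplotlib 3.10.9 were used.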

Additional observations from a re-analysis of the deposited data

How the results depend on the processing

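Of 39 alternatives tried on 22 results, 17 were labelled as near the main value, 22 as moved and none as reversed. A count was labelled near within a factor of 1.5, so H3K4me1 windows that went from 30 to 24 were near. Cover was held to a narrower rule, and every alternative for it was labelled moved, even 9.71 against 10.07 for the H3K36me3 difference below. The tally therefore does not measure how stable the results are, and the values themselves are given. With scores of 100 or more the region held 12 H3K4me3, 49 H3K27ac, 89 H3K4me1, 26 H3K36me3 and 27 H3K27me3 peaks. They covered 2.23%, 8.04%, 8.21%, 2.42% and 2.64% of it in the same order of marks. The difference in cover between the S100 blocks and the middle blocks, in percentage points, was then 7.27 for H3K4me3, 21.9 for H3K27ac, 18.7 for H3K4me1, 9.71 for H3K36me3 and 0.806 for H3K27me3, against 6.74, 23.3, 22.8, 10.07 and 1.51 as deposited. With blocks widened by 20 kb it was 5.43, 20.4, 20.6, 9.74 and 1.35. Windows with a peak of score 100 or more numbered 8 for H3K4me3 and 11 for H3K27me3, or 23.5% and 32.4% of the windows, against 23.5% and 17.3% of those of all chromosomes. The 9 H3K4me3 peaks that touch neither H3K27ac nor H3K27me3 all score below 100.

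No paired analysis was possible because both replicates of a mark are pooled in 1 list, and for the same reason no replicate was left out in turn. Each comparison has 1 list per mark, so none of the differences has a replicate check. Depth, which is unknown, limits what an absent peak means: a stretch without a peak is one in which the caller listed none.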

Other observations

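The gaps on the 2 sides of the IVL/SPRR/LOR block were marked differently. The gap before it held 3 H3K27ac and 6 H3K4me1 peaks, which covered 5.96% and 11.8% of it, with 0 H3K27me3 peaks. Its widest H3K27ac peak, chr1:152851682-152853770, had 2089 bases and a score of 470. The gap after the block held 0 H3K27ac peaks and 10 H3K27me3 peaks with scores of 50.2 to 305.

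H3K36me3 and H3K27ac peaks met often at the ends of the region. In the S100 blocks 16 of 28 H3K36me3 peaks touched H3K27ac (57.1%, 95% Wilson interval 39.1 to 73.5%), against 10.01% of all H3K36me3 peaks. In the FLG group, the only middle block with H3K36me3, the count was 0 of 11. That allows a share of up to 25.9% and could not be told from the 10.01% of all H3K36me3 peaks.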
